A study of Mus musculus with 69 samples.

Results

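Sham PT-S1 denotes the first segment of the proximal tubule, dissected by hand from mouse kidneys after a sham operation, and it was compared here between 24 h and 72 h after that operation. The libraries were chosen by their labels as sham and PT-S1, which gave 20 of the 69 RNA-seq libraries of the series: 8 libraries from 3 animals at 24 h and 12 libraries from 5 animals at 72 h. The study compared sham operation with unilateral nephrectomy (UNx), the surgical removal of 1 kidney, in PT-S1 and in the cortical collecting duct (CCD). All mice were WT male C57BL/6 animals from Taconic, operated on at 7 weeks of age, housed singly in a 12:12 h light cycle and fed normal chow. No agent or transgene was named, and the sham groups at both times differed by label in the time after surgery alone. The time of day at which the kidneys were taken was not given in the sources used here.

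The first segment of the proximal tubule begins at the glomerulus and takes back most of the filtered glucose, phosphate, amino acids, bicarbonate and water. It burns fatty acids and small organic acids rather than glucose, and it makes glucose and ammonia, with PEPCK (Pck1) as a central enzyme. Like most cells it holds a circadian clock: ARNTL with CLOCK or NPAS2 drives the Per, Cry and Nr1d genes and the output factors Dbp, Tef and Hlf, and the PER, CRY and NR1D proteins feed back on this drive.

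Expression was given as TPM, transcripts per 1000000, a unit that corrects for gene length and sets every library to the same total. TPM keeps no depth, so no counting interval could be given. The number after the group in each title was read as the animal, libraries of 1 animal were averaged on the log2 scale, and animals were the replicates. Nothing further in the labels says that these were separate animals, so p-values measure the spread between the animals as numbered. A difference below is the 72 h mean minus the 24 h mean of log2(TPM + 1), which understates the change of genes at low levels. TPM values per animal are means over its libraries, listed in the order of the animal numbers. A gene was said to rise or fall where limma's moderated test gave a Benjamini-Hochberg adjusted p under 0.05. The values at 24 h and 72 h came from separate tables that list partly different genes (55487 and 53700 identifiers, of which 52404 are shared), so time and table cannot be told apart.

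The tubules carried the RNA of their segment at both times. The 12 markers of proximal S1 and S2 cells summed to between 9825 and 26046 TPM per library at 24 h and between 11588 and 24305 TPM at 72 h. Slc5a2, the glucose transporter SGLT2 of the early proximal tubule, stood at 3093, 3282 and 2459 TPM in the 24 h animals and at 2235, 3156, 1656, 3242 and 2547 TPM in the 72 h animals, which overlap (difference -0.20, adjusted p = 0.659, limma). The phosphate transporter Slc34a1 (-0.34), the lactate transporter Slc5a12 (-0.10) and the endocytic receptor Lrp2 (-0.22) did not pass the test either. Of the 12 markers 1 passed: the organic anion transporter Slc22a6 fell (-2.01, adjusted p = 0.0445, limma), against 2.37% of all genes falling. The podocyte gene Nphs1 stayed at or below 0.220 TPM, and summed podocyte, thick ascending limb and intercalated cell markers at or below 36.9 TPM, in every library. Summed fibroblast and mural cell markers had medians of 3.57 TPM per library at 24 h and 5.15 TPM at 72 h. They reached 210 TPM in library 3 of 24 h animal 3 and 341 TPM in library 2 of 72 h animal 1. Ren1 alone held 205 and 320 TPM there. Summed erythrocyte markers reached 88.4 TPM in library 3 of 72 h animal 4, against a median of 0.906 TPM at 72 h. Markers of S3, the last proximal segment, varied as well: their sum ran from 15.0 to 308 TPM at 24 h and from 12.2 to 1422 TPM at 72 h, with the highest value in 1 library of 72 h animal 5. Animals at 72 h also held 126 to 315 TPM of 9 endothelial markers against 83.7 to 194 TPM at 24 h, which overlap. Of the 8 tested, Emcn, named after its values were seen, was the 1 that rose (1.06, adjusted p = 0.0471, limma), against 1.34% of all genes rising. In such bulk samples fewer cells of a type and less RNA per cell cannot be told apart.

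Among the 24 h libraries, 2 stood apart from the rest. Library 1 of animal 1 had a median correlation with the other PT-S1 libraries of its table (sham and UNx, across genes) of 0.824, and library 2 of animal 3 of 0.904. All 12 libraries at 72 h were at or above 0.945. The share of TPM in mitochondrially encoded genes was 2.38 to 9.56% at 24 h and 4.5 to 19.6% at 72 h. Of the 13 mitochondrially encoded protein genes, 6 are listed at 0 in all 20 libraries, so a value of 0 is given below as listed, not as absence.

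Across 12050 genes tested, 446 differed between 72 h and 24 h (3.7%), of which 161 were higher (1.34%) and 285 lower (2.37%) at 72 h. The median difference over all genes was -0.08. The animals of both times did not overlap for 441 of the 446, and over all genes for 1691 (14%), 726 of them higher (6.02%) and 965 lower (8.01%). Quantile normalization gave 262 higher and 258 lower genes and scaling by the median ratio gave 230 and 242, so the excess of lower genes depends on the scaling. Leaving out 24 h animal 1 left 109 calls, 24 h animal 2 left 205, and 72 h animals 1, 2 and 4 left 178, 297 and 263. Leaving out both libraries that stood apart gave 941 (225 higher and 716 lower), so the number of calls depends on few libraries. The UNx animals, which are separate mice with PT-S1 values in the same tables as the sham animals, shared the direction of 432 of the 446 genes (96.9%, against 70.2% of all genes tested). Sham CCD shared the direction of 200 of the 361 that were also tested there (55.4%, against 60.2% of all genes tested in both). In UNx PT-S1 at 72 h, library 2 of animal 1 and library 2 of animal 2 had low median correlations with their table (0.825 and 0.843). In sham CCD at 72 h, library 2 of animal 1 had 0.914. These libraries were kept in the UNx and CCD values given here and below.

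Circadian clock genes had the highest shares of called members among the 30 gene lists examined. Of 11 tested genes that run in phase with Dbp (clock repressors and output factors), 7 fell and 0 rose, against 2.37% of all genes falling, and the median difference of the 11 was -1.42 against -0.08 over all genes. Of 6 genes of the opposite phase, 3 rose and 0 fell, against 1.34% of all genes rising, with a median of 0.87.

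Dbp, an output factor that switches on metabolic genes in a daily rhythm, stood at 145, 153 and 133 TPM in the 24 h animals and at 10.9, 10.8, 9.02, 14.6 and 16 TPM in the 72 h animals. The lowest 24 h animal was thus far above the highest 72 h animal, and the fall was 3.48 on the log2 scale (SE 0.19, adjusted p = 7.13e-06, limma). Single libraries gave the same picture: the 8 at 24 h lay between 80.4 and 183 TPM and the 12 at 72 h between 5.94 and 18.7 TPM. Its relative Tef was at 176, 92.3 and 103 TPM at 24 h and at 35.4, 37.0, 50.4, 32.3 and 52.1 TPM at 72 h (-1.42, SE 0.22, adjusted p = 0.00874). Hlf, the remaining member of this factor family, was at 64.8, 40.1 and 36.7 TPM and then at 15.5, 12.7, 22.4, 14.7 and 21.6 TPM (-1.31, adjusted p = 0.012). Neither gene overlapped between the times, although 24 h animal 1 was well above the other 24 h animals for both. Its high values came from library 1, which stood apart as given above. That library held 320 TPM of Tef and 108 TPM of Hlf, against at most 108 and 46.5 TPM in the other libraries of this animal.

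Among repressors, Ciart was at 16.3, 14.1 and 12.7 TPM at 24 h and at 1.18, 0.775, 3.38, 0.824 and 1.6 TPM at 72 h (-2.65, SE 0.28, adjusted p = 0.00145). Bhlhe40, which competes with ARNTL for its DNA element, was at 52.6, 50.6 and 48.6 TPM and then at 7.85, 9.49, 24.3, 10.9 and 17.5 TPM (-1.84, SE 0.27, adjusted p = 0.00754). Per3 was at 6.68, 4.51 and 7.63 TPM at 24 h and at 1.06, 1.02, 1.53, 1.59 and 1.95 TPM at 72 h (-1.53, adjusted p = 0.00434). All of these repressors were lower in every 72 h animal than in any 24 h animal. Per2, at 14.6, 8.93 and 8.02 TPM and then at 1.49, 1.69, 4.98, 2.16 and 1.61 TPM, also fell (-1.71, adjusted p = 0.0125), though it did not pass without 24 h animal 1 or without animal 2. The 4 members that did not pass all had negative differences: Usp2 (-1.13, adjusted p = 0.077), Nr1d2 (-0.92, 0.0959), Per1 (-0.55, 0.372) and Nr1d1 (-0.44, 0.317). Nr1d1, which encodes REV-ERB alpha, ranged from 37.4 to 48.8 TPM at 24 h and from 19.4 to 40.8 TPM at 72 h, with overlap.

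The activators moved the other way. Arntl, which encodes BMAL1, was at 1.93, 0.491 and 1.36 TPM at 24 h and at 11.4, 8.02, 9.61, 6.80 and 8.22 TPM at 72 h (2.21, SE 0.22, adjusted p = 0.000861). Npas2, a partner of ARNTL, was at 1.12, 0.157 and 0.437 TPM and then at 5.62, 6.60, 6.94, 3.73 and 4.75 TPM (2.13, SE 0.22, adjusted p = 0.00145). Nfil3, which binds the same element as DBP and represses there, was at 2.18, 1.53 and 3.03 TPM and then at 11.7, 7.87, 13.1, 6.00 and 9.14 TPM (1.65, SE 0.24, adjusted p = 0.00733). For none of these activators or opposite-phase genes did the times overlap. Clock itself, at 6.12 to 11.2 TPM at 24 h and 6.46 to 9.67 TPM at 72 h, gave a difference of 0.09 (adjusted p = 0.814), and Cry1 (-0.83, adjusted p = 0.125) did not pass the test.

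**Figure D1:**
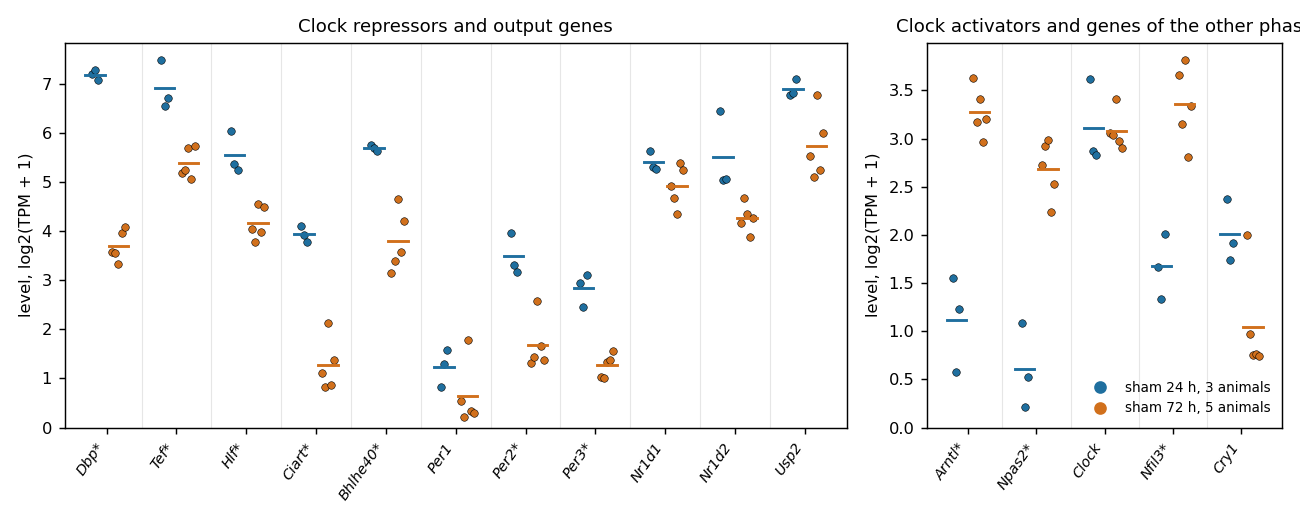
Level of 16 clock genes in sham PT-S1 as log2(TPM + 1), with 1 point per animal (3 at 24 h in blue, 5 at 72 h in orange), a bar for the mean of the animals and a star where limma's adjusted p was under 0.05. Dbp, Ciart, Bhlhe40, Per2, Per3, Tef and Hlf sit higher at 24 h, and Arntl, Npas2 and Nfil3 sit higher at 72 h.

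The promoters of 3 of the genes that fell are shown because they hold the letters through which clock factors are known to act. Each line gives the 250 bases before the gene's start, 5′ to 3′ on the gene's strand, from RefSeq's GRCm38.p6 annotation, with matches in capitals: the E-box CACGTG for Ciart and Tef, and the D-box TTANGTAA for Per3. The windows are chr3:95882229-95882478 on the minus strand for Ciart, chr15:81802423-81802672 on the plus strand for Tef and chr4:151044666-151044915 on the minus strand for Per3.
Ciart: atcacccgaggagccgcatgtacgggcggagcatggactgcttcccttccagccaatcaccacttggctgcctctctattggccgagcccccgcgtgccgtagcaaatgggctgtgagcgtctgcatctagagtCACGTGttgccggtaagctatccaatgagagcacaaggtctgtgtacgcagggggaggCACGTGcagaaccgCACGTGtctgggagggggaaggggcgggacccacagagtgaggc
Tef: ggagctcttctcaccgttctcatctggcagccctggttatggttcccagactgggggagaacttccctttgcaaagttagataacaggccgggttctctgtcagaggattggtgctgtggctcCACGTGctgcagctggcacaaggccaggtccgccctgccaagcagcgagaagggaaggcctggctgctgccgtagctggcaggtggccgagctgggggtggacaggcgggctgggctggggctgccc
Per3: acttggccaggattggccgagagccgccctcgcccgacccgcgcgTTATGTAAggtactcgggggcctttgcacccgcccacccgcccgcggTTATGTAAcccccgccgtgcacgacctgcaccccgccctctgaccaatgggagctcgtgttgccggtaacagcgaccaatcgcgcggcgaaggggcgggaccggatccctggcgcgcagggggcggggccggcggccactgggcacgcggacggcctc
Ciart holds 3 E-boxes, at 116, 58 and 44 bases before the start, Tef holds 1 at 127 bases, and Per3 holds 2 D-boxes at 205 and 158 bases. Both strands were searched, N stands for any base, and the 2 motifs do not overlap in these windows. An E-box was found in 6.86% and a D-box in 2.44% of the 27025 genes with such a window. Of the 10 in-phase clock genes with a window, 4 held an E-box (Bhlhe41, Ciart, Per1 and Tef) and 1 a D-box (Per3). These matches describe the letters of the window and were not tested as binding sites.

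The same genes were followed in PT-S1 of the UNx animals and in CCD of the sham animals, where Dbp and Arntl had the direction of sham PT-S1 in the former and the opposite sign in the latter. In UNx PT-S1, Dbp ranged from 69.0 to 91.7 TPM at 24 h (4 animals) and from 10.4 to 33.5 TPM at 72 h (5 animals), a difference of -2.22, and Arntl ran from 0.655 to 2.22 TPM and then from 2.37 to 8.18 TPM (1.07). Neither gene overlapped between the times there. In sham CCD, Dbp ranged from 6.40 to 56.8 TPM at 24 h and from 17.1 to 67.9 TPM at 72 h (0.68), and Arntl from 24.8 to 34.7 TPM and from 16.3 to 41.3 TPM (-0.24), each with 4 animals per time and with overlap. UNx and CCD values are given as descriptions without a test of their own.

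Whether the time difference itself differed between the segments was tested in 1 limma fit of the 16 sham animals, with PT-S1 and CCD animals taken as separate. The deviations of same-numbered PT-S1 and CCD animals correlated at -0.22 to 0.10 at 24 h and at -0.02 to 0.14 at 72 h. Whether both segments came from the same mice or the same time of day is not given. A difference between segments therefore cannot be told apart from one between mice or collection times. Of 11179 genes tested, 136 passed (1.22%), 57 with a higher difference in PT-S1 than in CCD (0.51%) and 79 with a lower one (0.707%). Of the clock genes, 6 were among them: Dbp (PT-S1 minus CCD -4.16, adjusted p = 0.0103), Ciart (-2.67, 0.0103), Arntl (2.45, 0.0101), Npas2 (2.72, 0.0111), Bhlhe40 (-1.85, 0.0364) and Per3 (-1.61, 0.013). Tef (-1.57, adjusted p = 0.0636), Per2 (-1.29, 0.383) and Nfil3 (1.57, 0.117) did not pass this test of the difference, and Hlf was not tested in CCD at this level. The number of genes passing ran from 73 to 305 as single animals were left out; the lowest came without PT-S1 72 h animal 1 and the highest without CCD 72 h animal 1.

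**Figure D2:**
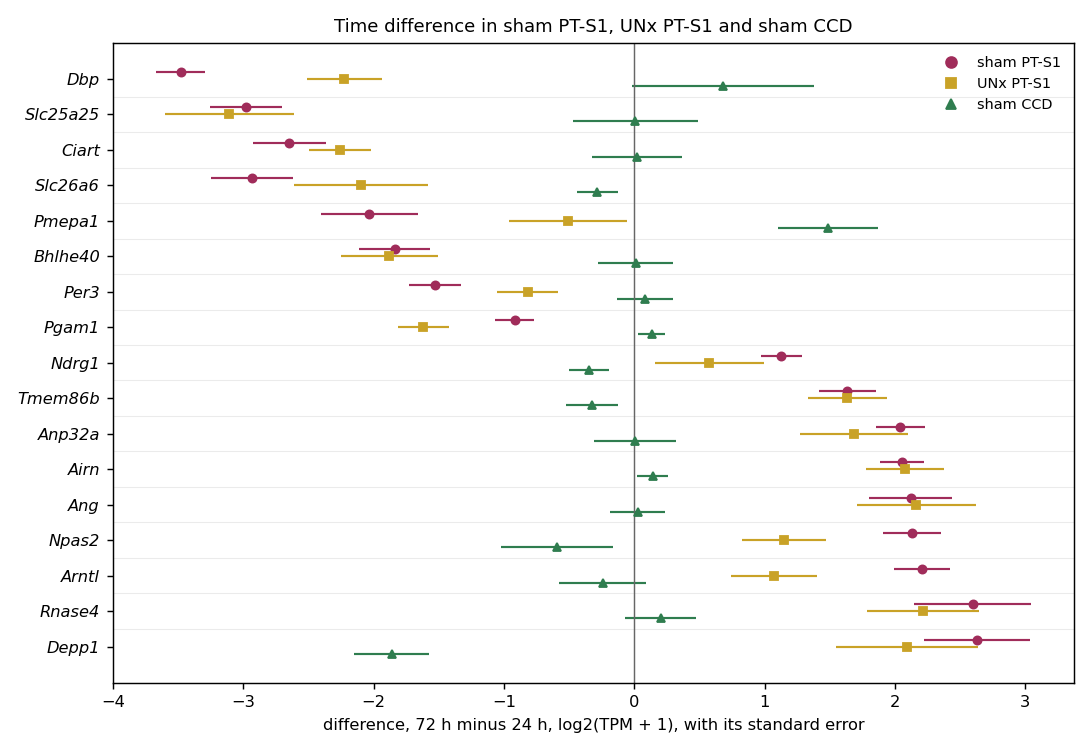
Difference between 72 h and 24 h, on the log2(TPM + 1) scale with its standard error, of 17 genes in sham PT-S1, UNx PT-S1 and sham CCD. For Dbp the points lie at -3.48, -2.22 and 0.68, and for Arntl at 2.21, 1.07 and -0.24.

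Genes of gluconeogenesis and ammonia production showed a few large falls rather than a shift of the whole list. Of 14 members tested, 3 fell and 0 rose, against 2.37% of all genes falling, and the median was -0.12 against -0.08 over all genes. Pck1, which makes phosphoenolpyruvate for glucose synthesis and supports ammonia production, was at 7205, 9396 and 6463 TPM in the 24 h animals and at 912, 1344, 738, 1805 and 2985 TPM in the 72 h animals (-2.43, SE 0.40, adjusted p = 0.0108). The 24 h and 72 h animals did not overlap, and 72 h animal 5 was the highest of its group. Glud1, glutamate dehydrogenase, which releases ammonia from glutamate, fell by 0.87 (adjusted p = 0.0252); it was named after its values were seen. G6pc (-0.03) and Fbp1 (0.02) of the same pathway, also named after their values were seen, had adjusted p of 0.961 and 0.959. Pck1 did not pass without 24 h animal 1 (adjusted p = 0.0582) nor without 24 h animal 2, and 0 of the 14 passed limma's threshold without animal 1. In UNx PT-S1, Pck1 ran from 3784 to 7929.8 TPM at 24 h and from 1054 to 3198 TPM at 72 h, which do not overlap.

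Targets of PPAR-alpha, the receptor that turns on fatty acid oxidation during fasting, fell in part: 7 of 35 fell and 0 rose, against 2.37% of all genes falling. Of the 35 differences 32 were below 0, against 7203 of 12050 over all genes, and the median was -0.47 against -0.08. The fatty acid hydroxylase Cyp4a10 was at 147, 138 and 417 TPM and then at 18.0, 84.9, 11.3, 17.2 and 127 TPM (-2.71, SE 0.61, adjusted p = 0.0375). 24 h animal 3 was the highest of its group, and 72 h animal 5 came close to the lowest 24 h animal. Cyp4a14, a close relative whose reads may be shared with other Cyp4a genes, was at 39.8, 18.7 and 136 TPM and then at 3.93, 27.6, 1.51, 0.847 and 14.4 TPM (-3.22, adjusted p = 0.0304), so that its animals overlap in mean TPM although not on the averaged log2 scale. Libraries of 1 animal differed in both genes and in the S3 marker Slc7a13. In 24 h animal 3, library 1 held 790 TPM of Cyp4a10, 248 TPM of Cyp4a14 and 111 TPM of Slc7a13, against at most 309.6, 109 and 7.2 TPM in its other libraries. In 72 h animal 2, the libraries held 149 and 21.3 TPM of Cyp4a10 with 71 and 0.19 TPM of Slc7a13, and in 72 h animal 5 the library with 829 TPM of Slc7a13 held 296 TPM of Cyp4a10 against 56.8 and 27.0 TPM in the others. The summed S3 markers had a median of 53.6 TPM per library at 24 h and 21.0 TPM at 72 h, and their part in the Cyp4a values was not tested. Cyp4a10 passed in 17 and Cyp4a14 in 18 of 24 alternatives (adjusted p up to 0.127 and 0.115). Of the mitochondrial enzymes, Hadha of the trifunctional protein was at 92.4, 74.8 and 71.1 TPM and then at 39.8, 45.2, 38.6, 46.6 and 50.6 TPM (-0.80, adjusted p = 0.0137). Of the further members that fell, 3 are given, named after their values were seen: the thioesterase Acot2 (-0.86, adjusted p = 0.0257), the reductase Decr1 (-0.66, 0.0495) and the carnitine carrier Slc25a20 (-0.67, 0.0498). The count of members that fell ran from 1, without 24 h animal 1, to 13 as single animals were left out. The list's median was -1.16 in UNx PT-S1 and -0.23 in sham CCD.

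In sterol synthesis 3 of 25 genes rose and 0 fell, against 1.34% of all genes rising, with a median of 0.21 against -0.08 over all genes. All 3 belong to the mevalonate part of the pathway. Pmvk, phosphomevalonate kinase, was at 7.36, 11.2 and 11.6 TPM at 24 h and at 29.3, 28.1, 26.0, 22.8 and 18.9 TPM at 72 h (1.27, SE 0.20, adjusted p = 0.00879). Mvk, mevalonate kinase, was at 7.85, 8.23 and 6.46 TPM and then at 20.5, 23.1, 23.0, 18.2 and 12.3 TPM (1.24, SE 0.21, adjusted p = 0.0116). Both were higher in every 72 h animal than in any 24 h animal. Fdps, farnesyl diphosphate synthase, rose by 1.22 (adjusted p = 0.0141) and was named after its values were seen. Without 24 h animal 1, 1 of the 25 rose.

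**Figure D3:**
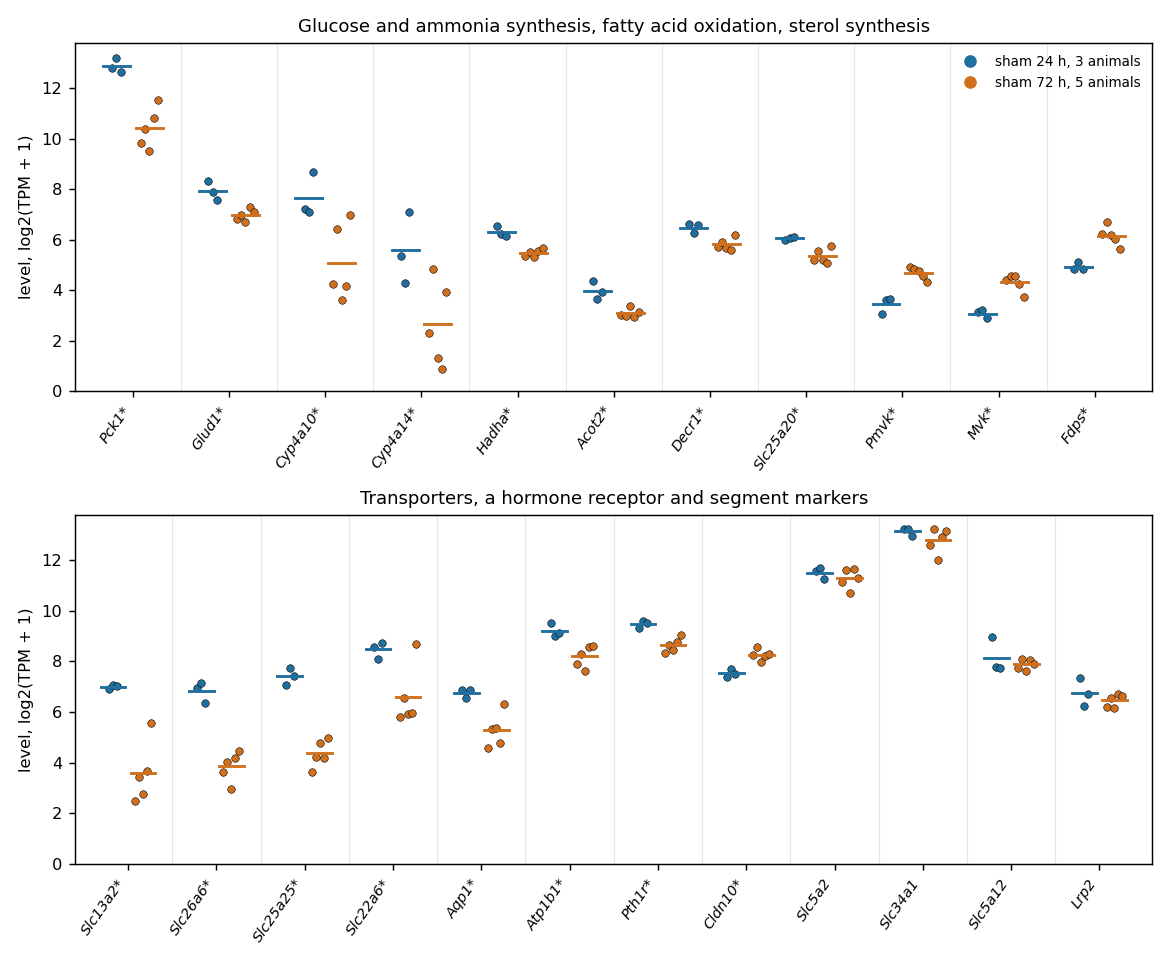
Level of 11 metabolic genes and 12 transport genes in sham PT-S1 as log2(TPM + 1), with 1 point per animal (24 h in blue, 72 h in orange), a bar for the mean of the animals and a star where limma's adjusted p was under 0.05. Pck1, Slc13a2, Slc26a6 and Slc25a25 show wide gaps between the times, and Slc5a2, Slc34a1, Slc5a12 and Lrp2 overlap.

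Transporters of organic and inorganic ions held some of the widest falls among genes above 10 TPM. Slc13a2, the apical carrier that takes up citrate and other dicarboxylates, was at 121, 132 and 129.96 TPM in the 24 h animals and at 4.64, 9.62, 5.69, 11.8 and 46.6 TPM in the 72 h animals (-3.48, SE 0.55, adjusted p = 0.00897). Slc26a6, the apical exchanger of chloride, oxalate and formate, was at 124, 141 and 81.5 TPM and then at 11.3, 15.1, 6.85, 17.3 and 21.1 TPM (-2.93, SE 0.32, adjusted p = 0.00145). Slc25a25, a mitochondrial carrier that exchanges ATP-Mg for phosphate, was at 134, 212 and 172 TPM and then at 11.3, 17.8, 26.6, 17.3 and 30.3 TPM (-2.98, SE 0.27, adjusted p = 0.000823). None of these overlapped between the times, and 72 h animal 5 was the highest of its group for each. The falls of Slc26a6 and Slc25a25 differed from sham CCD (PT-S1 minus CCD -2.65, adjusted p = 0.00373, and -2.99, adjusted p = 0.014). Slc13a2 was not tested in CCD at this level.

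Slc22a6, the organic anion transporter OAT1 that takes up urate and drugs from blood, was at 375, 276 and 428 TPM and then at 54.7, 93.2, 60.1, 61 and 415 TPM (-2.01, adjusted p = 0.0445). It passed in 13 of 24 alternatives (adjusted p up to 0.188). Animal 5 at 72 h lay within the 24 h range, and 1 of its 3 libraries (935 TPM of Slc22a6) was also the library with the highest S3 markers, with 829 TPM of Slc7a13. The part of tubule composition in these transporter values was not tested. Of 27 organic ion transporters tested, 2 fell (Slc13a2 and Slc22a6) and 0 rose, against 2.37% of all genes falling, with a median of -0.40 against -0.08 over all genes. In this list 6 fell without both libraries that stood apart and 0 without 24 h animal 1.

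Among 17 genes of sodium, proton and bicarbonate handling, 2 fell and 1 rose, against 2.37% and 1.34% of all genes. Aqp1, the water channel of the proximal tubule, was at 114, 91.9 and 115 TPM and then at 22.8, 38.6, 39.9, 26.6 and 78.8 TPM (-1.52, SE 0.31, adjusted p = 0.0253). Cldn10, a claudin of the tight junction, was at 165, 209 and 182 TPM and then at 308, 375, 252, 299.6 and 315 TPM (0.76, adjusted p = 0.024). The sodium pump subunit Atp1b1, named after its values were seen, fell by 0.97 (adjusted p = 0.0438). Of 13 phosphate and vitamin D genes, Pth1r, the parathyroid hormone receptor, was the 1 that fell, from 648, 774 and 728 TPM to 325, 402, 347, 437 and 531 TPM (-0.80, adjusted p = 0.0304). The median of that list was -0.66 against -0.08 over all genes, 12 of its 13 differences were below 0, and 4 fell without both libraries that stood apart. Every list count in this paragraph came to 0 in limma without 24 h animal 1, and Aqp1 passed in 17, Cldn10 in 19 and Pth1r in 14 of 24 alternatives. Aqp1, Atp1b1, Cldn10 and Pth1r showed no overlap between the times.

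Of 31 interferon-stimulated genes tested, 7 rose and 0 fell at 72 h, against 1.34% of all genes rising. Of the 31 differences 29 were above 0, against 4847 of 12050 over all genes, and the median was 0.71 against -0.08. Rtp4 was at 2.21, 1.35 and 1.71 TPM in the 24 h animals and at 9.82, 6.08, 11.8, 4.42 and 6.32 TPM in the 72 h animals (1.65, SE 0.27, adjusted p = 0.0108). Usp18, which removes the ISG15 tag and damps interferon signalling, was at 0.981, 0.990 and 1.75 TPM and then at 5.51, 4.14, 6.60, 3.27 and 3.78 TPM (1.33, adjusted p = 0.0124). The tag itself, Isg15, was at 1.07, 0.399 and 0.967 TPM and then at 9.51, 2.26, 4.90, 3.68 and 3.43 TPM (1.53, adjusted p = 0.0215). None overlapped between the times, and 72 h animals 1 and 3 were the highest for Rtp4 and Usp18. Isg15 and the 4 further members that rose were named after their values were seen: Xaf1 (1.44, adjusted p = 0.02), Ifit1 (1.17, 0.0428), Bst2 (1.01, 0.0456) and Ifi27 (0.84, 0.03). Apart from Bst2 and Ifi27 these genes stayed below 12 TPM in every animal, while Ifi27 ran from 95.5 to 138 TPM at 24 h and from 163 to 226 TPM at 72 h.

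Ifitm3, an interferon-induced membrane protein that was not on this list, was at 25, 16.4 and 22.9 TPM and then at 84.9, 40.8, 97.8, 35.9 and 43.0 TPM (1.48, SE 0.32, adjusted p = 0.0313), with 72 h animals 1 and 3 again the highest. It did not pass in 8 of 24 alternatives, among them without both libraries that stood apart (1.00, adjusted p = 0.123). The 13 markers of macrophages and other leukocytes summed to 263 to 347 TPM per animal at 24 h and to 248 to 705 TPM at 72 h; 0 of the 11 tested passed limma's threshold, 0 had an unadjusted p under 0.05, and Ptprc, the common leukocyte gene, stayed at or below 2.72 TPM in every library. The summed endothelial markers overlapped between the times, and 1 of them rose, as given above. Within 72 h animal 3, library 2 held 144 TPM of Ifitm3 and 241 TPM of the endothelial marker Plvap, against 51.8 and 71.8 TPM in library 1. Library 1 of 24 h animal 3 held 216 TPM of Plvap with 29.6 TPM of Ifitm3. The part of leukocyte and endothelial RNA in the interferon genes was not tested. The count of interferon genes that rose was 1 without 24 h animal 1 and 7 without both libraries that stood apart. The list's median was 0.41 in UNx PT-S1 and -0.04 in sham CCD, and Rtp4's difference from CCD did not pass (1.37, adjusted p = 0.131).

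Promoters of Isg15 and Ifit1 are shown because they hold the element to which the interferon-activated factor ISGF3 is known to bind. Each line gives the 250 bases before the gene's start as above, with matches to the interferon element (GAAA, any 2 bases and GAAA, on either strand) in capitals; the windows are chr4:156200819-156201068 on the minus strand for Isg15 and chr19:34640639-34640888 on the plus strand for Ifit1.
Isg15: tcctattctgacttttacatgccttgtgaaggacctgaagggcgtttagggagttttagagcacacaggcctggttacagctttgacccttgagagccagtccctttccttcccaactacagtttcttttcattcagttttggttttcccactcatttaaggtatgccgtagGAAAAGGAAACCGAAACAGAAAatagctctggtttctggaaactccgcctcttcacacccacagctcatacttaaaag
Ifit1: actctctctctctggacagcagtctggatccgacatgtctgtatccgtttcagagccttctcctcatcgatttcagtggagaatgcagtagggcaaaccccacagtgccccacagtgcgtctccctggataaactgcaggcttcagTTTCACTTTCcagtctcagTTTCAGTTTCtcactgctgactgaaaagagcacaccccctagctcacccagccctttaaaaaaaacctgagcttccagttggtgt
Isg15 holds 3 overlapping matches, at 78, 72 and 66 bases before the start, and Ifit1 holds 2, at 104 and 85 bases, which read as the reverse complement on the strand shown. The element was found in 3.46% of genes with a window and in 13 of the 26 interferon genes with one (50%). It was in 3 of the 4 genes that rose and have a window (Bst2, Ifit1 and Isg15). These matches are descriptions of the letters.

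Among 13 p53 targets and inhibitors of cyclin-dependent kinases, 3 rose and 0 fell, against 1.34% of all genes rising, with a median of 0.31 against -0.08 over all genes. Cdkn1a, which encodes the cell cycle inhibitor p21, was at 3.43, 3.13 and 4.59 TPM at 24 h and at 12.5, 5.95, 12.9, 14.0 and 9.28 TPM at 72 h (1.16, SE 0.21, adjusted p = 0.0149). Cdkn1b, which encodes p27, was at 1.3, 0.915 and 1.86 TPM and then at 3.46, 2.39, 4.41, 2.95 and 3.51 TPM (0.92, adjusted p = 0.0268). Bax, a promoter of apoptosis named after its values were seen, rose by 0.54 (adjusted p = 0.0498, limma). Mdm2 (-0.09) and Ccng1 (-0.11), 2 further p53 targets also named after their values were seen, did not pass (adjusted p = 0.866 and 0.853, limma). The animals did not overlap for Cdkn1a or Cdkn1b, but 0 of the 13 passed without 24 h animal 1. In UNx PT-S1 the difference of Cdkn1a was 0.16.

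Of 20 replication and mitosis genes tested, 1 fell and 1 rose, against 2.37% and 1.34% of all genes. Tk1, thymidine kinase, was at 17.4, 22.7 and 18.9 TPM and then at 7.93, 5.40, 9.57, 9.15 and 11.5 TPM (-1.13, adjusted p = 0.018), and Stmn1, a regulator of microtubules, rose by 0.62 (adjusted p = 0.0391). Neither overlapped between the times. Without 24 h animal 1 limma called 0 of the 20, and Tk1 passed in 19 and Stmn1 in 15 of 24 alternatives. In UNx PT-S1, Tk1 ran from 12.8 to 15.1 TPM at 24 h and from 4.80 to 30.4 TPM at 72 h (-0.17).

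**Figure D4:**
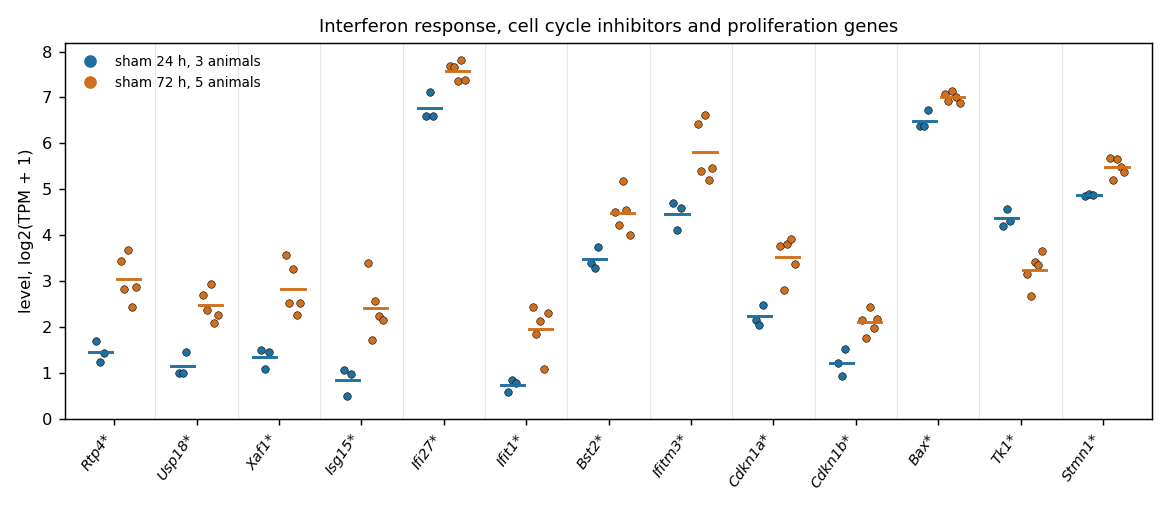
Level of 8 interferon-induced genes and 5 genes of cell cycle control in sham PT-S1 as log2(TPM + 1), with 1 point per animal (24 h in blue, 72 h in orange), a bar for the mean of the animals and a star where limma's adjusted p was under 0.05. All of the interferon-induced genes shown sit higher at 72 h, and Tk1 sits lower.

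Several further genes had large rises. Car3, a carbonic anhydrase, was at 39.8, 30.9 and 59.3 TPM in the 24 h animals and at 295, 186, 157, 175 and 208 TPM in the 72 h animals (2.2, SE 0.21, adjusted p = 0.000861). Depp1, a FOXO-induced gene, was at 22.1, 10.4 and 13.9 TPM and then at 187, 75.2, 55.3, 58.3 and 157 TPM (2.63, SE 0.41, adjusted p = 0.00879). Anp32a, a nuclear phosphoprotein that binds histones, was at 16.1, 16.7 and 18.8 TPM and then at 79.3, 46.1, 63.7, 84.8 and 79.7 TPM (2.04, SE 0.19, adjusted p = 0.000823). In each of them every 72 h animal was above every 24 h animal. Depp1 went the other way in sham CCD, from 6.93 to 16 TPM at 24 h to 1.23 to 3.64 TPM at 72 h (-1.86), and the differences between segments passed for Depp1 (4.49, adjusted p = 0.00128) and Anp32a (2.04, adjusted p = 0.0123).

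Rnase4 and Ang are neighbouring ribonuclease genes that share a promoter and first exons, so their reads may be split between them. Rnase4 was at 5.55, 6.02 and 2.92 TPM at 24 h and at 33.2, 74.4, 17.0, 41.2 and 28.4 TPM at 72 h (2.60, SE 0.45, adjusted p = 0.0125). Ang was at 1.41, 3.49 and 0.845 TPM and then at 10.04, 18.3, 8.82, 13.1 and 8.85 TPM (2.12, SE 0.32, adjusted p = 0.00811). 72 h animal 2 was the highest for both, and neither overlapped between the times. Their differences from sham CCD passed as well (2.39, adjusted p = 0.0492, and 2.09, adjusted p = 0.0167).

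Fabp7, a fatty acid binding protein, was at 14.2, 16 and 12.6 TPM and then at 59.8, 49.4, 56.2, 48.5 and 34.5 TPM (1.72, SE 0.19, adjusted p = 0.00145). Tmem86b, an enzyme that breaks down lysoplasmalogens, was at 20.4, 17.9 and 16.1 TPM and then at 54.2, 70.0, 46.5, 76.6 and 41.4 TPM (1.63, SE 0.22, adjusted p = 0.00434). Slc17a4, a member of the sodium-phosphate transporter family, rose by 1.33 (adjusted p = 0.0346) but did not pass in 9 of 24 alternatives (adjusted p up to 0.126). Neither Fabp7 nor Tmem86b overlapped between the times, and the difference of Tmem86b from CCD passed (1.96, adjusted p = 0.00819). Ndrg1, a gene induced by low oxygen, was already abundant at 1681, 1478 and 1447 TPM and stood at 3198, 3949.6, 3194, 2807 and 3285 TPM at 72 h (1.13, SE 0.16, adjusted p = 0.00539). Pgam1, a glycolytic mutase on the same list of 23 hypoxia and glycolysis genes, went from 114, 135 and 104 TPM to 60.8, 50.5, 57.7, 64.6 and 62.7 TPM (-0.92, adjusted p = 0.0108). Ndrg1 and Pgam1 were the 2 members of the list that passed, against 3.7% of all genes tested. Both differed from sham CCD (1.48, adjusted p = 0.00373, for Ndrg1 and -1.05, adjusted p = 0.0104, for Pgam1).

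Fgg, the fibrinogen gamma chain, which injured tubules are known to express, was at 6.54, 8.12 and 7.41 TPM and then at 18.4, 35.3, 12.0, 27.1 and 29.2 TPM (1.49, SE 0.30, adjusted p = 0.024). In UNx PT-S1 it ran from 10.2 to 98.3 TPM at 24 h and from 14.1 to 29.9 TPM at 72 h, with overlap. Of the 12 injury genes tested, Fgg was the 1 that rose and Tnfrsf12a, the receptor of TWEAK, the 1 that fell (-0.72, adjusted p = 0.0353). Of 9 acute phase genes, Fgg rose and Stat3, the factor that carries the IL-6 signal, fell (-0.58, adjusted p = 0.0458). Over all genes tested, 1.34% rose and 2.37% fell. Stat3 passed in 9 of 24 alternatives (adjusted p up to 0.436), Tnfrsf12a in 13 (up to 0.19) and Fgg in 18 (up to 0.203). Fgg did not pass when any 1 of the 24 h animals was left out, and without 24 h animal 1 limma called 0 genes of either list.

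Airn, the long noncoding RNA that is antisense to Igf2r in the imprinted cluster of that gene, was at 18.2, 14.3 and 12.5 TPM and then at 68.4, 57.4, 76.2, 55 and 57.7 TPM (2.05, SE 0.17, adjusted p = 0.000399). All 72 h animals were well above all 24 h animals, and the same held for UNx PT-S1, with 9.19 to 25.9 TPM at 24 h and 51.1 to 108 TPM at 72 h. In sham CCD it ran from 2.69 to 3.39 TPM and from 3.06 to 4.15 TPM, and the difference between segments passed (1.91, adjusted p = 0.00128). The library kit was not stated to keep strand, so reads of Airn and of Igf2r introns cannot be told apart; Igf2r itself, named after its values were seen, gave -0.50 (adjusted p = 0.163).

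Derl3 and Pmepa1 also fell. Derl3, a channel component of endoplasmic reticulum degradation, was at 8.94, 13.0 and 22.7 TPM and then at 0.846, 2.69, 0.966, 4.39 and 3.57 TPM (-2.25, SE 0.38, adjusted p = 0.012). Of 17 identifiers of endoplasmic reticulum chaperones and stress regulators (Ddit3 being listed under 2), Dnajc3 was the 1 that fell (-0.97, adjusted p = 0.0384), against 2.37% of all genes falling. The median was -0.58 against -0.08 over all genes, and 16 of 17 differences were below 0, against 7203 of 12050. Without both libraries that stood apart 3 members fell, and without 24 h animal 1 limma called 0 of the 16 then tested. Dnajc3 did not pass in 9 of 24 alternatives (adjusted p up to 0.17). Pmepa1, a gene induced by TGF-beta that damps its signal, was at 14.7, 13.9 and 19.8 TPM and then at 0.881, 1.99, 3.86, 5.60 and 4.59 TPM (-2.03, SE 0.37, adjusted p = 0.0151). Neither Derl3 nor Pmepa1 overlapped between the times. In sham CCD, Pmepa1 ran from 5.09 to 15.6 TPM at 24 h and from 12.9 to 32.7 TPM at 72 h (1.49), and the difference between segments passed (-3.52, adjusted p = 0.00819).

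The largest difference belonged to Tmem254a, a transmembrane protein gene, which is listed at 0 in all 3 of the 24 h animals and at 499, 497, 375, 456 and 461 TPM in the 72 h animals. It is listed at 0 in every one of the 32 libraries of both segments in the 24 h tables and above 0 in all 37 libraries of the 72 h tables. It ran from 355 to 582 TPM over the 12 sham PT-S1 libraries at 72 h, and from 662 to 936 TPM over the 4 sham CCD animals. Its copies Tmem254b and Tmem254c are listed in the 24 h tables alone, at 0. Its values thus split by time and table alike in both segments and operations, and time and table cannot be told apart. Mir6236 was at 30.1, 19.8 and 41.2 TPM at 24 h and is listed at 0 in 4 of the 5 animals at 72 h, with 6.66 TPM in animal 5 (adjusted p = 0.00434). The 5S ribosomal RNA gene n-R5s185 was at 14.4, 12.7 and 10.8 TPM at 24 h and is listed at 0 in all 5 animals at 72 h (adjusted p = 0.000399). Both are short RNAs that a selection for polyA is not made to keep, and single libraries at 24 h ran from 0 to 75.3 TPM for Mir6236 and from 0 to 25.4 TPM for n-R5s185.

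Among 307 members of 11 lists limma called 0 genes, against 3.7% of all genes tested. Of these members 37 had an unadjusted limma p under 0.05, against 2485 of the 12050 genes tested. These lists were the glucocorticoid response (10 genes tested), immediate early genes (14), heat shock chaperones (15), glucose transport (8), amino acid transport (17), endocytosis (17), the proteasome (31), cytosolic ribosomal proteins (79), nuclear subunits of the respiratory chain (75), ATF4 targets (21) and cold-inducible and splicing proteins (20). Their medians ran from -0.30 for endocytosis to 0.13 for immediate early genes, against -0.08 over all genes. The 7 mitochondrially encoded protein genes tested were all above 0, with a median of 0.92, and 0 passed limma's threshold while 4 had an unadjusted p under 0.05; the nearest were mt-Nd2 (1.14, adjusted p = 0.135) and mt-Cytb (1.00, adjusted p = 0.187). With 3 animals against 5, a p above the threshold does not show that these genes were alike at both times.

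**Figure D5:**
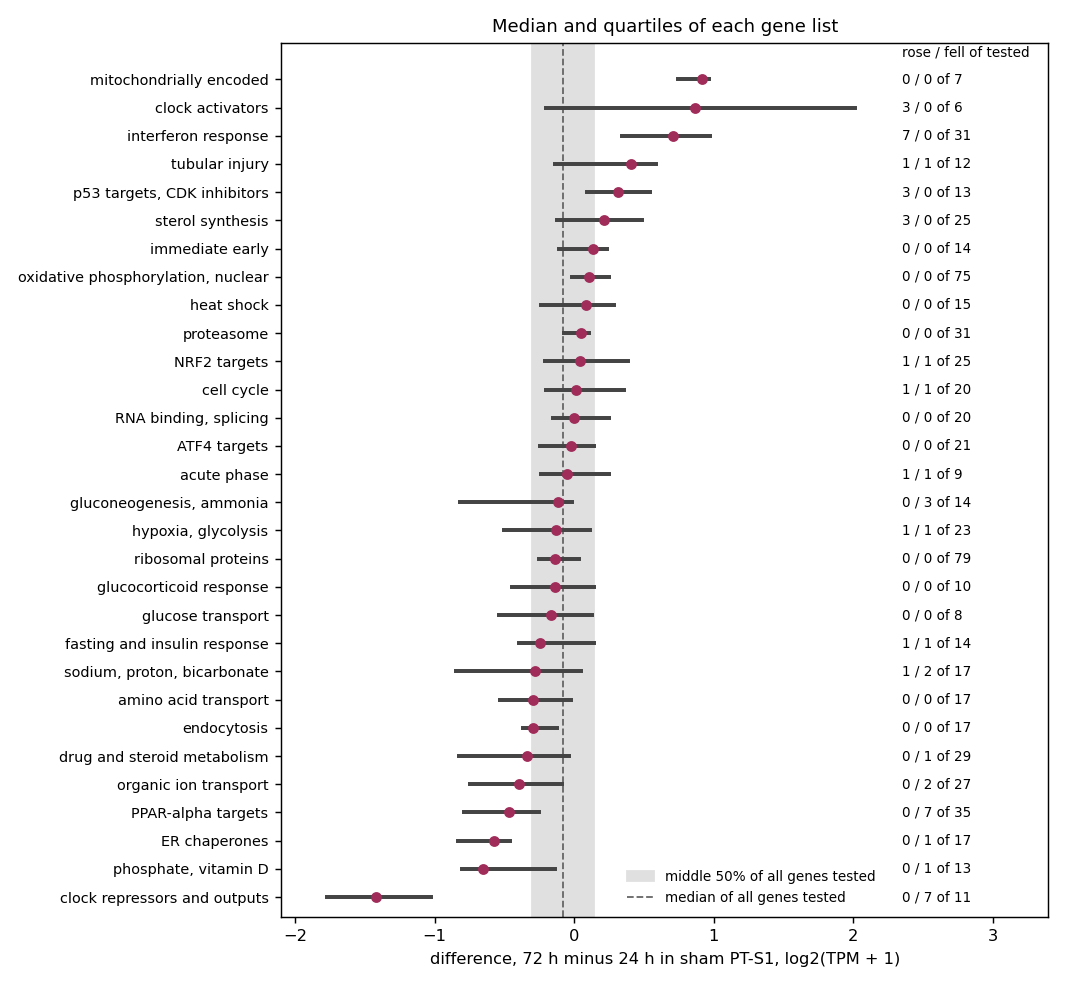
Median and quartiles of the difference between 72 h and 24 h, on the log2(TPM + 1) scale, for 30 gene lists in sham PT-S1, with the number of members that rose and fell of those tested, and a grey band for the middle 50% of all genes. The in-phase clock genes lie farthest below the band (median -1.42), and the mitochondrially encoded, opposite-phase clock and interferon genes lie farthest above it (0.92, 0.87 and 0.71).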

How the data were processed

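The deposited values are TPM per gene, 1 column per library, in 4 tables (PT-S1 and CCD, 24 h and 72 h). PolyA RNA was amplified with SMART-Seq V4 from dissected tubules, per the labels' protocols, and the authors aligned reads with STAR and estimated TPM with RSEM 1.3.3 on GRCm39, per the submitters' processing notes. The annotation release of either table and whether counting used strand are not given in the sources used here, so reads of overlapping antisense genes cannot be told apart. Of 69 columns, 47 were matched to 1 sample and 22 to a group and animal, and 0 were left unused. No 2 columns were identical.

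From these values, TPM over identifiers shared by the tables was rescaled to sum to 1000000 in each library, since the shared identifiers held 98.3 to 99.5% of TPM at 24 h and at least 99.9% at 72 h. Log2(TPM + 1) was averaged over the libraries of an animal. Genes with a mean of the 2 group means of at least 1 TPM were tested with limma 3.58.1 in R 4.3.3 (lmFit, and eBayes with a trend), two-sided, with Benjamini-Hochberg adjustment over all genes tested. Groups were compared as sham PT-S1 at 72 h minus 24 h. The difference between segments was a contrast of the 4 sham groups in 1 fit, and differences in UNx PT-S1 and sham CCD came from the same model and are given without a test. The fit was tested on simulated data before use.

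Named genes were up to 12 higher and 12 lower genes that passed, reached a mean of 10 TPM in a group and did not overlap between animals, ranked by size, without predicted genes and pseudogenes. They were joined by the 2 members of smallest p in each list, the clock genes, 4 segment markers and the 5 genes with the largest difference between segments in each direction. Genes outside this rule that are given with a difference are said to have been named after their values were seen. Markers given by level alone, such as Nphs1 and Ptprc, lie outside the rule as well. The members, gene lists and cell type markers were chosen with earlier results of these data known, and some alternatives were added after seeing the data. Promoter windows came from RefSeq's GRCm38.p6 table, matched by symbol, and served for sequence alone, with no coordinate joined to the GRCm39 values. Some members of the gene lists count in the totals but are not reported here by name.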

Additional observations from a re-analysis of the deposited data

Results flagged for a closer look

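Single animals that lay far from the rest of their group were found among the 5 sham animals at 72 h. There the gap to the nearest animal was large for the range of the group on the averaged log2 scale. The values given are mean TPM per animal, on which a gap can look smaller. Per2 was at 4.98 TPM and Per1 at 2.42 TPM in animal 3, and Cry1 was at 3.00 TPM in animal 1, each above the other animals. Slc22a6 was at 415 TPM and Mir6236 at 6.66 TPM in animal 5, both above the others, whereas Gsta4, a glutathione transferase, was at 17.9 TPM in animal 5 and Osgin1, an NRF2 target, at 24.9 TPM in animal 4, both below the others. These 7 were found among 94 named genes examined, and chance gives such a value in about 1 in 20 groups.

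The time difference in sham PT-S1 differed from that in sham CCD, by the contrast of both differences in limma with a Benjamini-Hochberg adjusted p under 0.05, for 18 of the named genes. PT-S1 minus CCD was above 0 for Depp1 (4.49), Npas2 (2.72), Arntl (2.45), Rnase4 (2.39), Ang (2.09), Anp32a (2.04), Tmem86b (1.96), Airn (1.91) and Ndrg1 (1.48). It was below 0 for Dbp (-4.16), Pmepa1 (-3.52), Slc25a25 (-2.99), Ciart (-2.67), Slc26a6 (-2.65), Bhlhe40 (-1.85), Per3 (-1.61), Pgam1 (-1.05) and Tmem254a (-0.761). For Tmem254a, listed at 0 at 24 h in both segments, this value compares its 72 h levels in PT-S1 and CCD.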

How the results depend on the processing

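Sham PT-S1 at 72 h against 24 h gave 446 genes (161 higher, 285 lower) and 54 members of the lists and marker sets; PT-S1 against CCD gave 136 (57 above 0, 79 below). None of the 56 named genes that passed turned its direction under any of the alternatives run. For genes whose animals do not overlap, as for 441 of the 446, leaving out 1 animal cannot turn the direction. This outcome was thus largely fixed in advance. Without a filter on low values the first comparison gave 197 genes (71 higher, 126 lower) and 20 members, from 25319 tested. With every library as a replicate it gave 807 (306 higher, 501 lower) and 84 members, and 279 between segments (123 above 0, 156 below). With the animal as a random effect it gave 966 (364, 602) and 92 members, and 289 between segments (129, 160). With array weights it gave 808 (294, 514) and 82 members, and 858 between segments (348, 510). Without the libraries of low correlation it gave 941 (225, 716) and 89 members, and 687 between segments (156, 531). All 4 PT-S1 groups in 1 fit gave 189 (76, 113) and 28 members. Quantile normalization gave 262 higher genes and a share of higher calls of 50.4% (36.1% as reported, 48.7% with median-ratio factors and 23.9% without the libraries of low correlation), and 88 genes above 0 between segments. Leaving out 1 animal at a time gave 109 to 520 genes (51 to 174 higher, 58 to 346 lower) and 14 to 72 members, and 73 to 305 between segments (30 to 108 above 0, 41 to 197 below); the lowest of the first came without 24 h animal 1, the highest without 72 h animal 5. The causes were not tested. With the animal number as a replicate block there were 577 genes (214, 363) and 96 members, and 64 between segments (23, 41). The numbers are shared by the groups without marking a pair: the deviations of same-numbered animals at 24 h and 72 h correlated at -0.09, 0.20 and 0.29, and 1 of the 3 correlated best with its own number. TPM as deposited, pseudocounts of 0.1 and 5 and a filter at 5 TPM kept each count within 1.5 times. So did 2 alternatives chosen after seeing the data, leaving out library 1 of 24 h animal 1 (570 genes) and leaving out genes at 0 in every library of either time (448). Dbp, Ciart, Arntl, Slc25a25, Slc26a6, Airn, Car3, Anp32a and Depp1 passed in all 24 alternatives. Depth is unknown from TPM, which limits what can be said of genes below a few TPM.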

Other observations

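Other gene groups gave 1 call in each direction or a single call. Over all genes tested, 1.34% rose and 2.37% fell. Of 25 NRF2 targets in sham PT-S1, Osgin1 fell from 78.4, 81.8 and 104 TPM at 24 h to 37.9, 39.7, 49.7, 24.9 and 46.7 TPM at 72 h (-1.16, SE 0.20, adjusted p = 0.0126, limma), with no overlap. Gsta4 rose from 12.0, 22.7 and 13.8 TPM to 56.3, 52.7, 60.2, 61.5 and 17.9 TPM (1.57, SE 0.38, adjusted p = 0.0463), with animal 5 within the 24 h range. Gsta4 passed in 11 of 24 alternatives (adjusted p up to 0.205). Of 14 genes under FOXO and insulin control, Cdkn1b rose and Trib1, a pseudokinase, fell from 2.00, 2.62 and 2.04 TPM to 0.675, 0.520, 0.906, 0.954 and 0.624 TPM (-0.89, SE 0.17, adjusted p = 0.0202). Of 29 drug and steroid metabolism genes, Cyp2a5 was the 1 that fell (-0.70, adjusted p = 0.0276), and it passed in 12 of 24 alternatives (adjusted p up to 0.662). Without 24 h animal 1 limma called 0 members of these 3 lists. Principal cell markers split: Fxyd4 rose (1.24, adjusted p = 0.00879, limma) and Aqp3 fell (-1.11, adjusted p = 0.0147, limma). Both were named after their values were seen. Aqp2, which defines that cell type, stayed at or below 2.01 TPM in every library.

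Slc5a10, a mannose and fructose transporter of the proximal tubule, was at 20.0, 25.5 and 48.2 TPM at 24 h and at 1.27, 11.2, 8.39, 0.284 and 82.1 TPM at 72 h, with animal 5 above every other animal (-2.23, adjusted p = 0.129). Malat1, a nuclear RNA, ran from 7114 to 10707 TPM at 24 h and from 9447 to 19772 TPM at 72 h (0.75, adjusted p = 0.153). Some identifiers are listed in 1 table alone: Gm22133 ran from 2437 to 11755 TPM over the 8 libraries at 24 h, and Rn18s from 164 to 854 TPM over the 12 at 72 h. Neither entered a comparison.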
